A study of Mus musculus with 2 samples.

Results

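The genes described here are those whose symbol has the form Psm, a letter from a to g and a number, the symbols given to the proteasome in the mouse. Both count tables held the same 50 such genes among 23154 genes, and 49 of them had a count in at least 1 of 87 cells. They were measured in single PK44 cells of the E10.0 yolk sac of C57BL/6 mouse embryos, which the study sorted as CD41-CD43-CD45-CD31+CD201+Kit+CD44+ and processed by a modified STRT-seq with an oligo dT primer that carries a cell barcode and a unique molecular identifier. There was 1 condition and there were 2 libraries, replicate 1 with 43 cells and replicate 2 with 44 cells, and no treatment or genotype was compared. The labels do not say whether both libraries came from separate embryos, so the spread between them may be technical.

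The 26S proteasome is the large protease that degrades proteins tagged with ubiquitin. Its 20S core is a barrel made of outer alpha rings, which gate the entry, and inner beta rings, which hold the proteolytic sites. The 19S regulatory particle caps the barrel: its base holds a ring of ATPases that unfold the substrate, and its lid removes the ubiquitin. Immune cells and cells exposed to interferon replace the catalytic beta subunits with inducible ones to form the immunoproteasome, which is known for making peptides for antigen presentation. Dividing and protein-producing cells depend on the 26S particle, and PK44 cells are an endothelial population that the study examined for hematopoietic potential.

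Replicate 1 held 8932527 counts and replicate 2 held 12706360. Cells held 13218 to 702028 counts in replicate 1 (median 141577) and 51620 to 956593 in replicate 2 (median 238899). No cell name was shared. The 6 endothelial markers (Cdh5, Pecam1, Kdr, Tie1, Esam and Tek) summed to 1937 and 3003 CPM, the counts of a gene scaled to a fixed total per library. The 6 hematopoietic markers (Runx1, Gfi1, Spi1, Itga2b, Myb and Adgrg1) summed to 863 and 450 CPM, and the macrophage markers Cx3cr1, Adgre1 and C1qb were at 0 in all cells. The erythroid list summed to 10.2 and 22.4 CPM, the visceral endoderm list to 0 and 16.4 CPM and the whole macrophage list to 26.2 and 44.9 CPM. The 5 mesenchymal markers summed to 830 and 330 CPM, and 2 cells of replicate 1 and 1 cell of replicate 2 with at least 100 counts each of Col1a1, Col1a2, Col3a1 and Lum stood apart from the rest.

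Among the 50 genes are 31 subunits of the constitutive 26S particle, which has further subunits with other symbols. With both libraries pooled, every one of the 31 was measured in more than 50% of the cells. The inducible and tissue-restricted subunits were low or at 0. The 50 genes together took 0.958% of the counts of replicate 1 and 0.994% of those of replicate 2. The 31 constitutive subunits took most of this, 8332 CPM in replicate 1 against 8957 CPM in replicate 2 (mean 8644 ± 442, SD, n = 2 libraries), which was 86.98% and 90.1% of the counts of the 50 genes. By mean CPM the subunits ran from 113 to 904 with a median of 268, and all 31 lay above 22.9 CPM, the median of the 13206 genes that had a count. The lowest of them by mean, Psmd11, still ranked 1791 among those genes. Levels were not divided by transcript length, because the protocol enriches the 3′ end of each transcript. The highest subunit was 7.98-fold above the lowest on this scale and 19.7-fold above it when CPM was divided by transcript length, with Psma7 highest and Psmd11 lowest on both scales.

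Both libraries gave like levels for most of the genes. Of the 50 genes, 37 lay within 1.5 times between the libraries, among them 28 of the 31 constitutive subunits, and 3 lay over 2 times apart. The same counts were not made over all genes, so whether this closeness is particular to these genes was not tested. The 4 genes at 0 in a library (Psmb8, Psmb9, Psma8 and Psmb11) have no ratio and are in none of these counts. Of the others, 20 were higher and 26 lower in replicate 2, with a median log2 ratio of -0.07, against 0.03 over the 10928 genes above 0 in both libraries. When the 50 genes were put in the order of their mean CPM, only 5 of the 49 neighbouring pairs had libraries that did not overlap, so that most of the order within that range was not resolved.

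**Figure D1:**
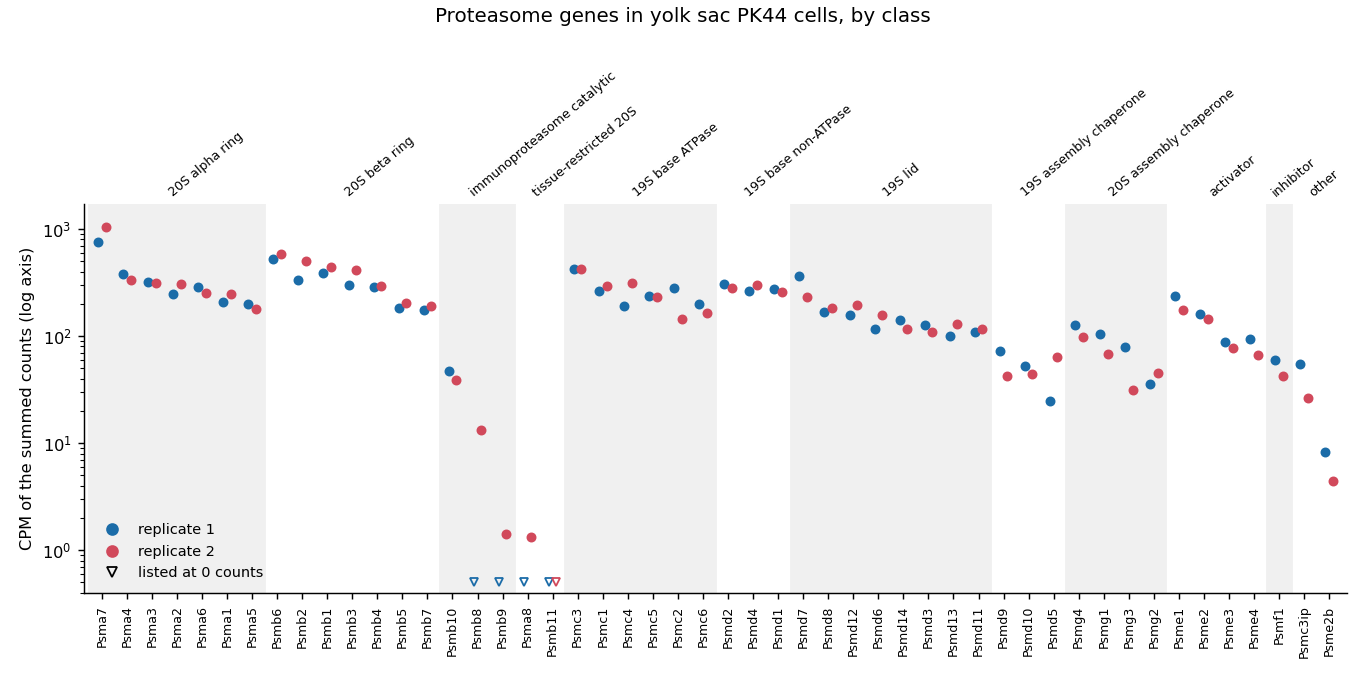
The CPM of the summed counts of each library (log axis) is plotted for each of the 50 genes, grouped by class and ordered by mean CPM within a class, with open triangles for genes listed at 0. The alpha, beta and 19S subunits sit between 100.4 and 1053 CPM in both libraries, the assembly chaperones and the activators lie mostly below them, and Psmb8, Psmb9, Psma8 and Psmb11 lie at the bottom.

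The 7 alpha subunits, which form the outer rings of the core and its gate, summed to 2395 and 2680 CPM. Psma7 was the highest of all 50 genes, with 756 CPM in replicate 1 against 1053 CPM in replicate 2 (904 ± 210, SD, n = 2), and was counted in 84 of 87 cells. Psma5 was the lowest of the ring with 198 and 178 CPM. Both libraries of Psma7 were above both libraries of every other alpha subunit. The germ cell alpha subunit Psma8, which takes the place of Psma7 in testis, had no count in replicate 1 and 1.34 CPM in replicate 2, from 4 cells.

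The 7 constitutive beta subunits summed to 2206 and 2631 CPM, close to the alpha ring in each library. Psmb6, which carries the caspase-like site, was highest with 529 and 588 CPM. Psmb5, the chymotrypsin-like site and the target of bortezomib, had 183 and 203 CPM. Psmb7, the trypsin-like site, had 177 and 192 CPM and was the lowest of the ring. The libraries of Psmb6 lay above those of Psmb5 and Psmb7, whereas those of Psmb5 and Psmb7 overlapped. The non-catalytic Psmb1 stood at 389 and 441 CPM, Psmb2 at 338 and 503 CPM and Psmb3 at 303 and 412 CPM, all lower in replicate 1.

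Of the inducible catalytic subunits only Psmb10 was measured in many cells. Psmb10, which replaces Psmb7, had 47.4 CPM in replicate 1 (26 of 43 cells) and 39.0 CPM in replicate 2 (33 of 44 cells). Its share of the counts of the pair with Psmb7 was 21.1% in replicate 1 (95% exact Clopper-Pearson interval 19.4 to 23.0) and 16.9% in replicate 2 (15.5 to 18.3). Such intervals cover counting error only. In replicate 1, 4 of the 26 cells with Psmb10 had no count of Psmb7, and in replicate 2 none did.

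Psmb8, which replaces Psmb5 and is the defining subunit of the immunoproteasome, had no count in replicate 1 and 13.3 CPM in replicate 2. By counting error alone, the absence of counts in replicate 1 allows a level of up to 0.336 CPM and a share of the pair with Psmb5 of up to 0.184%. These limits do not cover counts that gather in few cells, as in replicate 2. Psmb8 was at 0 in all 43 cells of replicate 1, which allows up to 6.98% of such cells to hold a count, with no limit set on their level. Limits for genes at 0, here and below, are approximate: 3 divided by the number of counts or cells. The exact upper limit of the share of the pair in replicate 1 was 0.226%. In replicate 2 the share of the pair with Psmb5 was 6.15% (5.28 to 7.12), and it came from 7 of 44 cells. One cell held 95 of the 169 counts and another 61, the next held 8, and the other 4 held 2, 1, 1 and 1. The highest cell was Runx1-high, a class defined below, with 124 counts of Runx1 and 179 of Spi1, and the next was Runx1-low with 265 counts of the endothelial gene Cdh5. All 7 cells also had counts of Psmb5. None of the 7 had a count of Csf1r, Cx3cr1, Adgre1 or C1qb, the defining macrophage genes, whereas Fcgr3, which other myeloid cells also express, was counted in 5 of them (1 to 164 counts) and Ptprc in 1 (10 counts).

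Psmb9, which replaces Psmb6, was counted in 1 cell of replicate 2 only, with 18 counts and a share of 0.240% of the pair (0.143 to 0.380). All 18 counts came from that cell, so this interval does not cover the spread between cells. That cell was not among the 7 with Psmb8. In replicate 1 the share of Psmb9 could have been up to 0.0635% by counting error alone. Psmb11, the beta subunit of the thymic cortex, was at 0 in all 87 cells. With both libraries pooled this allows up to 3.45% of such cells to hold a count, or 4.15% by the exact interval.

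**Figure D2:**
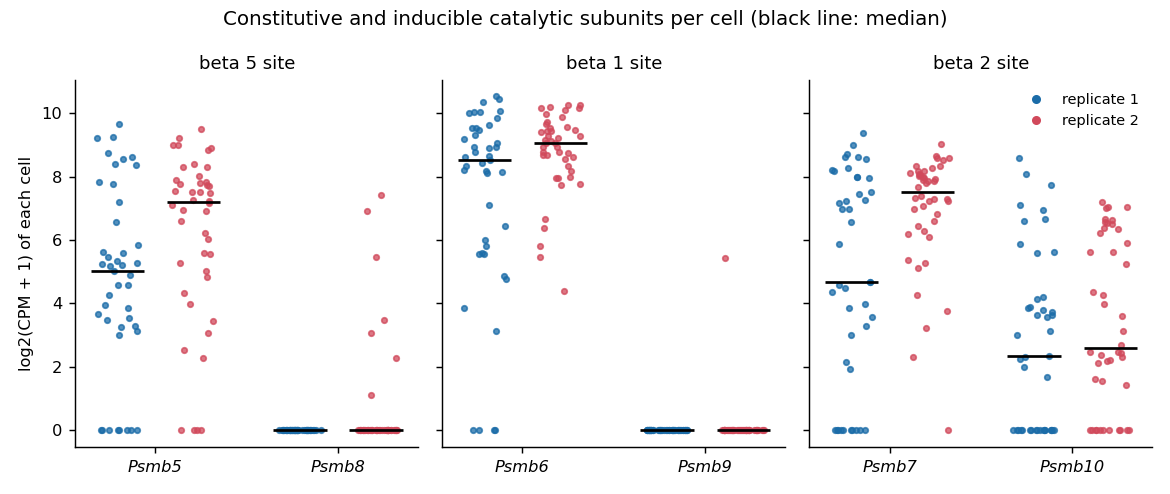
Each point is 1 cell, with its level as log2(CPM + 1) on the vertical axis, for the constitutive (left) and the inducible (right) subunit of each proteolytic site, with a black line at the median of each library. Psmb5, Psmb6 and Psmb7 are above 0 in most cells, Psmb10 is above 0 in 26 of 43 and 33 of 44 cells, Psmb8 in 7 cells of replicate 2 and Psmb9 in 1.

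Psmb8 and Psmb9 are neighbours in the MHC region of chromosome 17. In GENCODE M21 on GRCm38, Psmb8 spans chr17:34197721-34201454 on the plus strand and Psmb9 spans chr17:34181987-34187764 on the minus strand, 9957 bases apart. The 5′ end of Psmb9 overlaps that of the peptide transporter gene Tap1 by 211 bases on the other strand. Psmb10 lies apart from them at chr8:105935735-105938444 (minus strand). Psmb5 (chr14:54614119-54618022, minus strand) lies 3411 bases from the thymic Psmb11, and the activator genes Psme1 and Psme2 lie 5912 bases apart on the same chromosome. All 50 genes matched the annotation and lay on 16 chromosomes, with 10 on chromosome 11. Of the 50, 13 overlapped another coding gene. Whether the counting used strand is not given in the sources used here, so reads in such overlaps may belong to either gene.

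Promoter sequence was searched for short motifs of factors known to act on these genes, on both strands of the 250 bases before the RefSeq start (GRCm38.p6). RefSeq promoters were found for 42 of the 50 genes. TGACNNNGC is the core of the antioxidant response element, to which Nfe2l1 and Nfe2l2, the known activators of proteasome genes, bind. It stood in 4 of the 27 promoters of 25 constitutive subunits (14.8%), those of Psmb5, Psmb6, Psmc6 and Psmd12, and in 10.2% of all 32851 promoters. CCAAT, the box bound by NF-Y, stood in 10 of the 27 (37.0%) and in 33.8% of all. The interferon-stimulated response element, searched as GAAA, any 2 bases and GAAA again, is bound by interferon regulatory factors. It stood in 2 of the 27 (7.41%, Psmb3 and Psmd4) and in 2.98% of all. These matches are letters in a window and not shown sites, and the absence of a match says only that the letters are not in that window.

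The stretches before the starts of both catalytic genes with TGACNNNGC, and of the 19S chaperone Psmd9, which showed the largest difference in the Runx1 comparison below, are printed 5′ to 3′ on the strand of the gene. Capitals mark TGACNNNGC, and in Psmd9 also the interferon-stimulated response element. Psmb5 is shown at chr14:54618023-54618245 (minus strand, without the 27 bases of the window that fall in an annotated exon), Psmb6 at chr11:70525107-70525356 and Psmd9 at chr5:123227940-123228189 (both plus strand, outside annotated exons). The motif starts 47 bases before the start in Psmb5, 9 in Psmb6 and 31 in Psmd9.
Psmb5: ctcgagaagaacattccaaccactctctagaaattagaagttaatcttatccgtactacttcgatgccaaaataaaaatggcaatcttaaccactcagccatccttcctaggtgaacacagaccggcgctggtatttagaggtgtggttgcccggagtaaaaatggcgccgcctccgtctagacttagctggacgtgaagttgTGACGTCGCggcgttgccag
Psmb6: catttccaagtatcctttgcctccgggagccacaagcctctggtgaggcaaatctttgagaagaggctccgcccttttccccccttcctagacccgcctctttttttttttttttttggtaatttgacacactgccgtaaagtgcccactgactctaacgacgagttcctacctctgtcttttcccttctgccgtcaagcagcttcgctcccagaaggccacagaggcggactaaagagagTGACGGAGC
Psmd9: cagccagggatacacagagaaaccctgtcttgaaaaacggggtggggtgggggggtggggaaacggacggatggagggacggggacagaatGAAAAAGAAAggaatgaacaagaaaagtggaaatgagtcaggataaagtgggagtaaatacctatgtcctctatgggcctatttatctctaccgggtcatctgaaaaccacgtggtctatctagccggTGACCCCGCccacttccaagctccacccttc

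The 19S base summed alike in both libraries. Its 6 ATPases, Psmc1 to Psmc6, summed to 1595 and 1570 CPM. Psmc3 was the highest of them with 423 and 420 CPM and was counted in 86 of 87 cells, and Psmc6 was the lowest by mean with 198 and 166 CPM. Psmc2 differed most between the libraries, with 280 CPM in replicate 1 against 146 CPM in replicate 2. Among the scaffold subunits of the base, Psmd2 had 308 and 279 CPM and Psmd1 had 278 and 258 CPM, and the ubiquitin receptor Psmd4 had 263 and 298 CPM. The libraries of Psmd2 lay above those of Psmd1, and those of Psmd4 overlapped both.

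The 8 lid subunits were the lowest class of the constitutive particle, with 161 and 155 CPM per gene against 342 and 383 CPM per gene in the alpha ring and 315 and 376 CPM per gene in the beta ring. Psmd7, the partner of the deubiquitinase Psmd14, was highest with 368 and 230 CPM. Psmd11 was lowest by mean with 109.9 and 117 CPM, a range that overlapped those of Psmd3, Psmd13 and Psmd14. With the libraries pooled, Psmd11 was counted in 56 of 87 cells (64.4%, exact interval 53.4 to 74.4). Its share by library was 48.8% (21 of 43) in replicate 1 but 79.5% (35 of 44) in replicate 2. Both shares lay outside the pooled interval, which does not cover the spread between libraries. Psmd14, which cleaves ubiquitin from the substrate, had a mean of 130 ± 18.4 CPM (SD, n = 2).

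The genes of the symbol pattern that build, open or block the particle had lower mean CPM than every 26S subunit, with the exception of Psme1 and Psme2. The libraries of Psmg4 overlapped those of Psmd11. The base chaperones were Psmd9 with 73.0 and 42.1 CPM, Psmd10 with 53.0 and 44.5 CPM, and Psmd5 with 24.6 and 64.5 CPM. Psmd5 was counted in 11 of 43 cells in replicate 1 and in 36 of 44 in replicate 2, and Psmg3 in contrast stood at 79.7 CPM in replicate 1 against 31.2 CPM in replicate 2. Psmd5, Psmg3 and Psmc3ip were the 3 genes over 2 times apart among those above 0 in both libraries.

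The core chaperones, which pair with each other to assemble the alpha and beta rings, ran from Psmg4 with 127 and 97.3 CPM to Psmg2 with 35.4 and 45.6 CPM. Psme1 and Psme2, the subunits of the 11S cap that interferon raises, had 239.5 and 175 CPM (Psme1) and 160 and 146 CPM (Psme2), levels near those of 26S subunits. The nuclear activator Psme3 had 87.3 and 76.7 CPM, and Psme4, which caps the proteasome for the breakdown of histones, had 94.7 and 66.0 CPM. The inhibitor Psmf1 had 59.2 and 42.7 CPM. Psmc3ip, with 54.5 and 26.3 CPM, matches the symbol pattern but is a meiotic recombination factor and not a subunit, and Psme2b, with 8.28 and 4.41 CPM, is a copy of Psme2 whose reads may be shared with it.

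Genes of the pathway outside the symbol pattern differed widely in level. Of 12 listed proteasome factors, 9 had a row (the symbols Sem1, Paaf1 and Ecpas had none, and Shfm1 is the older symbol of Sem1) and all 9 had counts. The highest were Pomp, the chaperone that completes the core, with 501 and 666 CPM, and Shfm1, the smallest lid subunit, with 480 and 610 CPM. Of 14 measured genes of ubiquitin supply and delivery, Rps27a, which encodes ubiquitin fused to a ribosomal protein, was highest with 2421 and 1744 CPM. The 7 genes of the control of proteasome genes summed to 430 and 437 CPM, with Nfe2l1 at 119 and 130 CPM and Nfe2l2 at 84.6 and 117 CPM. The 12 genes of the interferon and antigen list summed to 531 and 751 CPM, of which B2m took 201 and 462 CPM and H2-D1 took 102 and 127 CPM, whereas the transporter Tap1 had 5.93 and 4.33 CPM. The COP9 signalosome, a relative of the lid, summed to 1003 and 1092 CPM over 9 genes, with Cops6 at 212 and 289 CPM and Cops5 at 140 and 184 CPM. For comparison, the CCT chaperonin, which folds actin and tubulin, was led by mean CPM by Cct5 with 839 and 528 CPM and Cct7 with 586 and 543 CPM. By mean CPM the cycling genes were led by Top2a, the topoisomerase of mitosis, with 818 and 643 CPM and Mki67 with 564 and 359 CPM.

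From cell to cell the summed level of the constitutive subunits varied 3 to 4 times from end to end. In replicate 1 the lowest cell had 3603 CPM, the median was 7394 CPM and the highest had 12120 CPM. In replicate 2 the lowest, median and highest were 3764, 8372 and 14665 CPM. The coefficient of variation was 25.6% and 27.6%. A cell of replicate 1 had counts of 12 to 31 of the 31 subunits (median 28), and a cell of replicate 2 had 23 to 31 (median 31).

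Pairs of subunit genes had a slightly higher correlation than pairs of all genes, which in replicate 1 was nearly lost once depth was held fixed. Spearman's rho was computed over the cells of each library for pairs of genes with a count in at least 80% of the cells of both, which 22 of the 31 subunits passed. It is given as a description, since cells share a library and differ in depth. Over the 231 pairs the median rho was 0.09 in replicate 1 and 0.12 in replicate 2, against 0.04 and 0.02 over all pairs of the 1108 genes that passed the filter. In both libraries 115 pairs were over 0 and 16 were under 0, counts that were not made for the pairs of all genes. Taken singly, replicate 1 had 68.0% of the subunit pairs over 0 and replicate 2 had 74.9%, against 59.2% and 54.4% of all pairs. With the total count of the cell held fixed the medians were 0.022 and 0.090, against 0.019 and 0.015 over all genes, and the total count itself had a rho of 0.34 and 0.38 with the summed level.

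The beta ring had medians of 0.19 and 0.27 over the 10 pairs of 5 genes, and the alpha ring had 0.12 and 0.07 over 15 pairs. In replicate 1 their order depended on depth: in thinned cells the beta ring had 0.092 and the alpha ring 0.115, and with the total count held fixed the beta ring had 0.069 and the base non-ATPases 0.109. Pairs within the lid had 0.09 and 0.22 over 3 pairs, and pairs of a core and a 19S subunit had 0.08 and 0.12. The comparison complexes were the CCT chaperonin with 0.12 and 0.33 and the ribosomal proteins with 0.10 and 0.30, so that in replicate 2 both were above the 26S subunits. The summed 20S level and the summed 19S level of a cell had a rho of -0.04 in replicate 1 and 0.43 in replicate 2.

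The pairs with the highest lower value in the 2 libraries joined the alpha subunit Psma2 with the ATPase Psmc4 (0.43 and 0.36), Psmb3 with Psmc4 (0.33 and 0.36), Psma2 with Psmb3 (0.50 and 0.33), Psma7 with Psmb3 (0.32 and 0.33) and Psma3 with Psmb1 (0.33 and 0.30). These were the 5 of the 231 pairs over 0.3 in both libraries, and Psmb3 was in 3 of them. How many pairs of all genes were over 0.3 in both libraries was not counted.

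**Figure D3:**
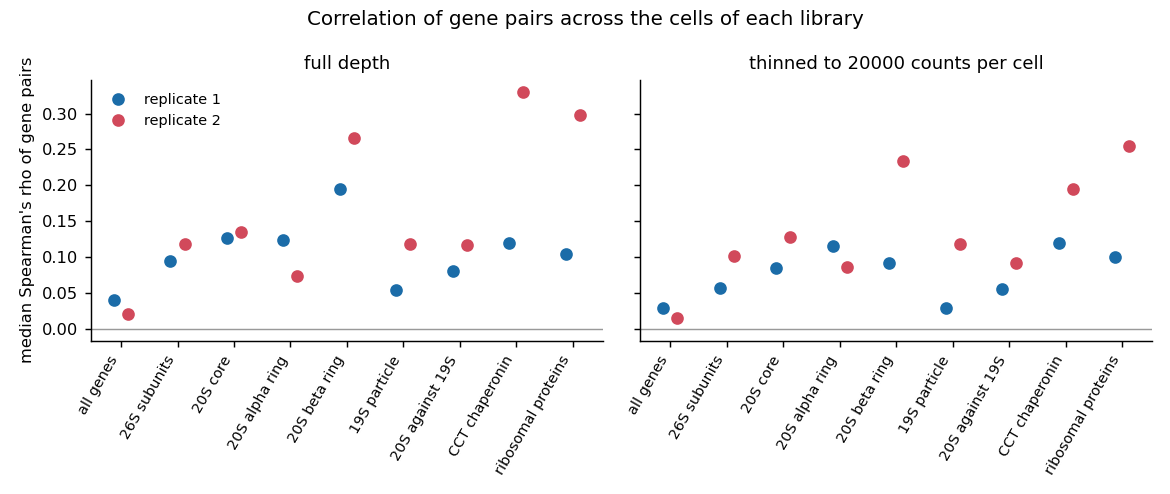
The median Spearman's rho of gene pairs is plotted for each gene set in each library, at full depth (left) and after each cell was thinned to 20000 counts (right). The 26S subunits lie above all genes in both libraries and both panels, at 0.09 and 0.12 at full depth and 0.056 and 0.10 after thinning, and the CCT and ribosomal sets of replicate 2 lie above the 26S subunits.

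Among 1085 other genes that passed the filter, the 10 whose rho with the summed 26S level was highest in the library where it was lower were Ndufb5 (0.47 and 0.48), Banf1, Rpl38, Txn1, Cox5a, Snrpd1, Ndufa2, Timm13, Snrpd2 and Eif5a (0.39 and 0.68). Of all 1085, 508 were over 0 in both libraries, with medians of 0.09 and 0.08. Ndufb5, Ndufa2 and Cox5a encode subunits of the respiratory chain, Timm13 a mitochondrial import chaperone, Snrpd1 and Snrpd2 proteins of the spliceosome, Txn1 thioredoxin and Eif5a a translation factor. The 5 genes at the other end, looked at after the values were seen, were Cdh5 (-0.41 and -0.58), Col4a1, Jun, Tmem2 and Txnip (-0.35 and -0.36), the first of which is the junction protein VE-cadherin of endothelial cells.

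Runx1, the transcription factor required for the endothelial-to-hematopoietic transition, differed widely between the cells. A cell was called Runx1-high when its Runx1 CPM was above the median of its own library, which was 52.2 CPM in replicate 1 against 10.03 CPM in replicate 2, and Runx1-low otherwise. This gave 22 low and 21 high cells in replicate 1, and 22 and 22 in replicate 2. Runx1-high cells were more deeply sequenced, with a median of 260240 counts against 95376 in replicate 1 and 271734 against 213444 in replicate 2. All 3 cells with mesenchymal genes were Runx1-low. The part of depth in what follows was measured with thinned cells, and that of the cell composition only by leaving out these 3 cells.

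The summed level of the constitutive 26S subunits was slightly higher in Runx1-high cells in both libraries, and no proteasome gene passed the test. Of the 31 subunits, 15 were higher in both libraries (48.4%), where 28.8% of all genes tested were, a background not matched for level. The counts of each class summed per library gave 7466 CPM in Runx1-low and 8809 CPM in Runx1-high cells of replicate 1, and 8244 and 9435 CPM in replicate 2, which are log2 ratios of 0.24 and 0.19. Class sums were not all higher: the alpha ring went from 2042 to 2589 CPM in replicate 1 but from 2781 to 2613 CPM in replicate 2, and the base non-ATPases from 891 to 827 CPM in replicate 1 but from 729 to 906 CPM in replicate 2. Over single cells the median was 7287 against 8075 CPM in replicate 1 and 7287 against 8976 CPM in replicate 2, and the ranges overlapped. In replicate 1 the lowest and highest were 3603 and 12120 CPM in Runx1-low and 4844 and 10902 CPM in Runx1-high cells. In replicate 2 they were 3764 and 12900 CPM in Runx1-low and 4676 and 14665 CPM in Runx1-high cells.

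**Figure D4:**
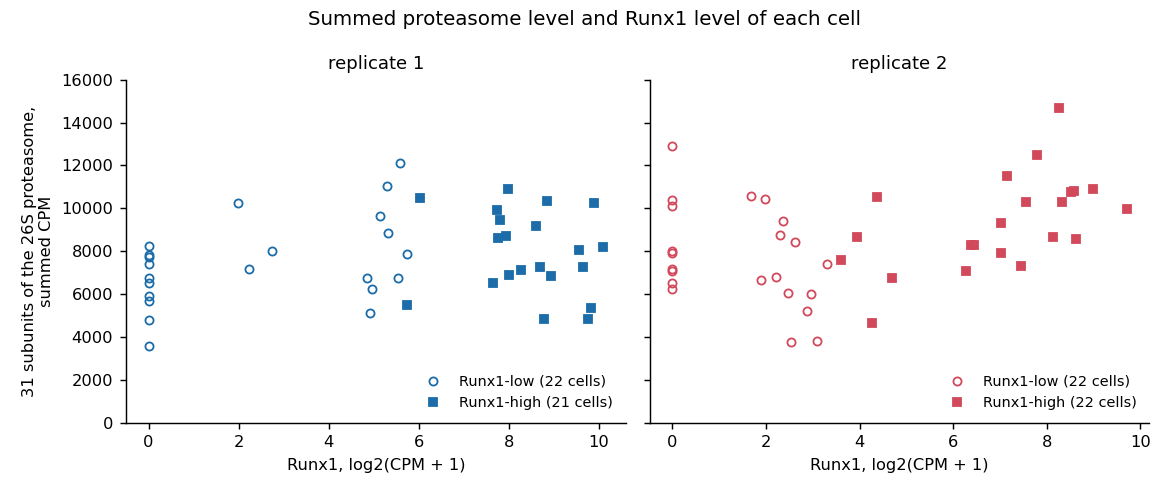
Each point is 1 cell, with its Runx1 level as log2(CPM + 1) on the horizontal axis and the summed CPM of the 31 constitutive subunits on the vertical axis, in replicate 1 (left) and replicate 2 (right), open for Runx1-low and filled for Runx1-high cells. The classes overlap in their proteasome level, and Spearman's rho is 0.20 over 43 cells and 0.36 over 44 cells.

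Across the cells of a library the summed 26S level had a Spearman's rho with Runx1 of 0.20 in replicate 1 (43 cells) and 0.36 in replicate 2 (44 cells). Runx1 itself had a rho of 0.34 and 0.35 with the total count of the cell. With the total count held fixed the values were 0.10 and 0.26, and in cells thinned to 20000 counts they were 0.19 (42 cells) and 0.44 (44 cells). The CCT chaperonin and the ribosomal proteins followed Runx1 more closely, with 0.38 and 0.63 for the former and 0.31 and 0.62 for the latter. Of the classes, the beta ring had 0.17 and 0.34, the lid 0.11 and 0.18, the alpha ring 0.31 and 0.05, the base ATPases -0.08 and 0.18 and the base non-ATPases 0.01 and 0.29. Of the 23 proteasome genes that passed the 80% filter, 13 had a rho over 0 in both libraries and none was under 0 in both. That is 56.5%, near the 53.8% of all 1108 genes, and Psmb3, with 0.23 and 0.52, was the highest single gene in replicate 2.

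The comparison was fitted over 10629 genes with edgeR's quasi-likelihood test on the 4 sums, 2 libraries by 2 classes. At a Benjamini-Hochberg adjusted p of 0.05 it called 1 gene (0.00941% of those tested), the mesenchymal collagen gene Col1a1, which was lower in Runx1-high cells. Of the proteasome genes 47 were tested, all but Psma8, Psmb9 and Psmb11, and 0 were called. At an unadjusted p of 0.05, 1 of the 47 passed, beside 588 of all genes (5.53%). Both sums of a replicate come from the same library, and with the library as a block 166 genes were called (1.56%), again 0 of the 47, and 3 of them passed at an unadjusted p of 0.05 (Psmb5, Psmd11 and Psmd7). DESeq2 without a block called 128 genes (1.20%), 0 of the 47, and 1 passed at an unadjusted p of 0.05.

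Although none passed, more of the proteasome genes were higher than lower in Runx1-high cells. In both libraries 20 of the 47 were higher in Runx1-high cells (42.6%), where 28.8% of all genes were, and 3 were lower, where 26.5% of all genes were. Their median log2 fold change was 0.25, against -0.01 for all genes tested. These genes share their libraries and are not independent of each other, and no test was made of the group. The background of all genes tested was not matched for level. Among the 1108 genes that passed the detection filter, 53.8% had a rho with Runx1 over 0 in both libraries. Of the 23 proteasome genes that passed that filter, 56.5% did. Whether the proteasome genes exceed genes of like level was not tested. The beta ring had a median log2 fold change of 0.43 with 5 of its 7 genes higher in both libraries. The lid had 0.16 with 4 of 8. The alpha ring (0.06, 2 of 7), the ATPases (0.06, 3 of 6) and the activators (0.01, 0 of 4) were near 0.

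Psmd9, a chaperone of the ATPase ring, showed the largest log2 fold change among the genes that went the same way in both libraries. It had 24.9 CPM in Runx1-low and 99.5 CPM in Runx1-high cells of replicate 1, and 21.2 and 56.2 CPM in replicate 2. Both high sums lay above both low sums, which adds little, since the gene was picked by these sums. The highest cell held 24.7% of the Psmd9 counts of replicate 1 and 16.6% of those of replicate 2. Cells with a count of Psmd9 held a median of 2 and 9 counts. Over cells its rho with Runx1 was 0.31 and 0.25. The fitted log2 fold change was 1.72 ± 0.74 (SE), with a p of 0.044 before and 0.88 after edgeR's Benjamini-Hochberg adjustment over all genes. With the library as a block, edgeR's p was 0.054 before and 0.60 after that adjustment. Hpd, the coding gene that overlaps Psmd9, had no counts in any of the 4 sums.

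Psmb5 had 66.8 and 246 CPM in replicate 1 and 159 and 232 CPM in replicate 2, low class first. The high sums were above the low sums here too, in a gene also picked by these sums. The log2 ratio was 1.82 in replicate 1 and 0.54 in replicate 2. The highest cell held 25.7% of the Psmb5 counts of replicate 1 and 11.8% of those of replicate 2. Cells with a count of Psmb5 held a median of 5 and 38 counts. Over cells its rho with Runx1 was 0.16 and 0.26. The fitted log2 fold change was 1.06 ± 0.51, and the adjusted p of edgeR was 0.90 without and 0.23 with the library as a block. When each cell was thinned to 20000 counts before summing, it was 0.47. The other catalytic genes of the constitutive core were flatter, with log2 ratios of 0.25 and 0.24 for Psmb6 and of 0.32 and 0.35 for Psmb7. Psmb10 had 26.8 and 58.7 CPM in replicate 1 and 38.0 and 39.6 CPM in replicate 2, so that only replicate 1 differed. Its direction turned when cells were thinned. The highest cell held 34.8% of the Psmb10 counts of replicate 1 and 16.0% of those of replicate 2. Over cells the rho of Psmb10 with Runx1 was -0.003 and -0.099.

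Psmg2, a chaperone of the alpha ring, had 14.5 and 46.9 CPM in replicate 1 and 21.0 and 62.1 CPM in replicate 2. Cells with a count of Psmg2 held a median of only 1.5 counts in replicate 1 and 2 in replicate 2. The highest cell held 22.2% and 28.7% of the Psmg2 counts. Over cells the rho of Psmg2 with Runx1 was -0.007 in replicate 1 and 0.35 in replicate 2. The lid subunit Psmd11 had 27.4 and 155 CPM in replicate 1 but 105 and 124 CPM in replicate 2, so that its fitted log2 fold change of 1.06 came mainly from replicate 1. Psmg4 was the only one of the 10 with a lower level in Runx1-high cells, 199 and 86.98 CPM in replicate 1 and 112 and 87.1 CPM in replicate 2. The other 4, Psmd7, Psmb4, Psmc5 and Psmd6, had fitted log2 fold changes of 0.52 to 0.72, with adjusted p values from 0.97 to 1.00.

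**Figure D5:**
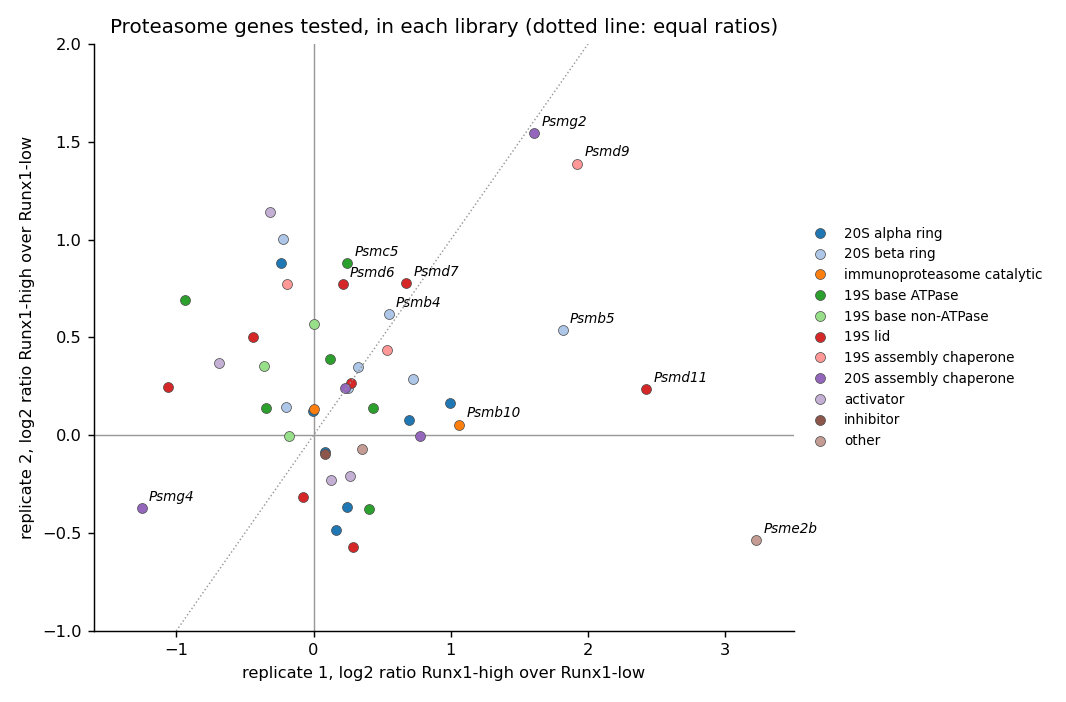
The log2 ratio of the sums of Runx1-high over Runx1-low cells in replicate 1 (horizontal) and replicate 2 (vertical) is plotted for the 47 tested genes, coloured by class, with the dotted line at equal ratios and Psmb8, which had no count in replicate 1, at 0 on the horizontal axis. Psmg2 (1.61 and 1.55) and Psmd9 (1.92 and 1.39) lie over 1 in both libraries, Psmb5 and Psmd11 lie far out in replicate 1 only, and Psme2b, a gene with few counts, lies at the right with opposite signs.

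The neighbouring lists in the same fit were as follows. Of the 9 other proteasome factors 5 were higher in both libraries and 0 lower, with a median log2 fold change of 0.18, and of the 13 tested genes of ubiquitin supply 6 were higher and 3 lower. Of the 7 genes of proteasome control 0 were higher and 2 lower in both, and of the 11 tested interferon and antigen genes 4 were higher and 4 lower. The COP9 signalosome had 3 of 9 higher and 3 lower. None of these genes passed the test with or without the block. The CCT chaperonin had 6 of 8 higher and a median of 0.64, and 1 of its genes, Cct3, passed with the library as a block (log2 fold change 1.33, adjusted p of edgeR 0.011). The ribosomal proteins had 63 of 93 higher with a median of 0.25, the same as that of the proteasome genes, and the cycling genes had 7 of 10 with a median of 0.61.

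Markers of other cells moved with the classes as well. The endothelial markers were lower in Runx1-high cells, with log2 ratios of -1.13 and -0.81, and the hematopoietic markers without Runx1 were higher, with 0.22 and 2.32. The mesenchymal markers were lower, with -5.54 and -5.08. The erythroid list was at 0.315 CPM in Runx1-low and 15.6 CPM in Runx1-high cells of replicate 1, and at 6.47 and 33.1 CPM in replicate 2. The macrophage list was at 0.315 CPM in Runx1-low and 40.5 CPM in Runx1-high cells of replicate 1 and at 9.99 and 68.4 CPM in replicate 2, with 3 of its 6 genes at 0 in all cells. The part of these markers in the proteasome values was not tested. Without the 3 cells with mesenchymal genes the median log2 fold change of the proteasome genes was 0.21, with 21 of 47 higher in both libraries.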

How the data were processed

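Reads were assigned to cells by their barcodes, mapped to mm10 with HISAT2 2.1.0 and counted with HTSeq by the authors, and the deposited values are counts of unique molecular identifiers per gene and cell, without normalization. The files do not show whether duplicates were removed completely. The proteasome genes and the gene lists were chosen with earlier results of these data known.

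All 87 cells entered the analysis. Doublets were not called here. The labels describe cells picked by mouth pipette, and per the methods the authors had left out cells with too many reads or genes. Counts were summed per library and given as CPM. Runx1 classes were tested on 4 sums with edgeR 4.0.16 in R 4.3.3 (filterByExpr, TMM, quasi-likelihood test, Benjamini-Hochberg, 0.05, all genes), without a library block, since the methods name none. A block, DESeq2 1.42.0 and thinning of cells to 20000 counts (seed 7) were alternatives. Sums with the same replicate number came from the same library, and the 2 sums of replicate 1 deviated from the class means with a correlation of 0.177 over 10629 genes. Correlations were Spearman's (scipy 1.17.1). Scripts were tested on simulated data. Genes are placed by GENCODE M21 (GRCm38) and promoters come from RefSeq (GRCm38.p6), in which 32 of 45 promoter entries continued into a GENCODE transcript.

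The genes named with values are the highest and lowest of each class, all catalytic subunits and activators, the 10 with the largest fold change of like direction in both libraries, the 10 other genes most like the summed 26S level, and the 2 highest of each list. Other genes were named after their values were seen. Genes were matched by symbol. Some items of the lists and motifs are not reported here.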

Additional observations from a re-analysis of the deposited data

How the results depend on the processing

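With 2 libraries the SD rests on 2 values, and each Runx1 class has 2 sums, the shallowest with 3172849 counts (Runx1-low cells of replicate 1). The proteasome genes called stayed at 0 in each of the 8 alternatives that gave a count. Those called among all genes were 1 as reported, 166 with the library as a replicate block, 128 with DESeq2, 67 without the filter on low counts, 0 with cells split by any Runx1 count after thinning, 2 with thinned sums and 0 without the 3 cells with mesenchymal genes. The median log2 fold change of the proteasome genes, 0.25 as reported, was 0.26 with the block, 0.22 with DESeq2 or its size factors, 0.27 without the filter, 0.18 with the thinned split, 0.17 with thinned sums, 0.21 without those 3 cells and 0.23 to 0.24 with 1 library left out. Psmb10 turned to -0.71 in thinned sums. The cause was not tested. Its other values, and those of the 9 other named genes, kept their sign, but in thinned sums Psmb5 was 0.47 and Psmd6 0.054. The block changed no call of a proteasome gene.

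The summed 26S level was 8110 CPM as a mean over cells and 8332 to 8957 CPM with 1 library left out. The highest-to-lowest fold was 19.7 per transcript length and 7.53 to 9.57 with 1 library left out. The inducible catalytic sum was 41.0 CPM as a mean over cells and 47.4 to 53.7 CPM with 1 library left out. The median pairwise rho of 26S subunits became 0.056 and 0.10 in thinned cells and 0.022 and 0.090 with the total count held fixed. In replicate 1 it became 0.067 without cells under 50000 counts, 0.15 as Pearson's r and 0.12 with a 50% filter.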
